A study of Mus musculus with 16 samples.

Results

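The beta-2 leukocyte integrins are adhesion receptors built from 1 shared chain, CD18 (*Itgb2*), and 1 of several CD11 chains. The genes followed here are *Itgam* (CD11B, the alpha chain of MAC-1), *Itgal* (CD11A, the alpha chain of LFA-1), *Itgax* (CD11C, the alpha chain of p150,95) and *Itgb2* itself. They were taken by gene name and make up 4 of the 46078 genes in the count table, and 3 of the 4 passed the filter on low counts (*Itgax* did not). In blood and marrow these receptors sit on the surface in a resting shape and are switched on from inside the cell by the small GTPase RAP1, talin and kindlin-3. They then bind partners such as ICAM1, ICAM2, fibrinogen and complement fragments. MAC-1 is best known on neutrophils, monocytes and macrophages, LFA-1 on lymphocytes and most other leukocytes, and p150,95 on dendritic cells and macrophages.

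RNA sequencing was performed on small pools of mouse hematopoietic stem cells (HSCs) that had been sorted by the amount of MAC-1 on the cell surface, as stained with an antibody to CD11B. There were 5 populations. SS MAC-1- (n = 3) and SS MAC-1low (n = 3) HSCs came from untreated wild type B6.SJL mice at steady state (SS), and 4 week MAC-1- (n = 3), 4 week MAC-1low (n = 4) and 4 week MAC-1+ (n = 3) HSCs came from recipients 4 weeks after transplantation of 8000 LSK cells (lineage negative, Sca-1+ and c-Kit+) following 900 cGy of irradiation. In the serial transplantations of the paper the LSK cells came from B6.SJL donors, and recipients of another strain also received whole marrow of their own strain. The HSCs sorted from those recipients were donor cells. The paper does not state this separately for RNA sequencing. All cells were LSK CD48- CD150+ bone marrow HSCs, with no CD11B antibody in the lineage cocktail. The labels give no age. The transplantation text is attached to every sample, and SS samples were taken as untreated from their treatment label. No sample is labelled SS MAC-1+, so that the 4 week MAC-1+ population has no counterpart of its own at steady state. The samples are labelled as separate replicates, but nothing in the labels says which came from separate sorts or mice. Serial codes in the sample descriptions could group the gates into sets, but their meaning is not given. The p-values therefore measure the spread between these pools. Because the gates were set on CD11B protein, differences in *Itgam* between gates describe how transcript follows the sorting criterion and are not an independent finding.

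Total counts were 13781278 to 28580658 per sample, and 3 counts, taken as the floor of detection for counting error, correspond to 0.105 to 0.218 CPM (counts scaled to a common library size). The HSC label was checked on 8 genes (*Procr*, *Hlf*, *Mecom*, *Fgd5*, *Slamf1*, *Kit*, *Ly6a* and *Meis1*), of which all 8 exceeded 3 counts in at least 1 sample of every population. *Slamf1*, the gene of the sorting marker CD150, had 2 counts in 1 of the 4 week MAC-1+ samples. The summed level of these genes was 758 to 942 CPM in 4 week MAC-1-, below every sample of the other populations. It was 1474 to 1749 CPM in SS MAC-1-, 1389 to 1859 CPM in SS MAC-1low, 1576 to 2189 CPM in 4 week MAC-1low and 2378 to 3381 CPM in 4 week MAC-1+. The genes did not all follow the sum. In counts, *Procr*, *Hlf* and *Mecom* were lower in 4 week MAC-1- than in any other sample. *Slamf1* had 1093 to 1951 counts there, against 202 to 732 in SS MAC-1- and 47 to 1067 in SS MAC-1low. *Meis1* had 2775 to 6299, against 2938 to 6472 in SS MAC-1- and 2313 to 5295 in SS MAC-1low. In bulk samples fewer cells carrying a transcript and less of it per cell cannot be told apart. Variation between replicates was wide, with a common biological coefficient of variation of 1.13, which is 1 value over all genes tested and not specific to a level of expression.

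The 3 alpha chain genes lie on the forward strand of mouse chromosome 7 (GRCm38, GENCODE M21). *Itgal* spans chr7:127296260-127335138, *Itgam* chr7:128062640-128118491 and *Itgax* chr7:128129547-128150657, with *Itgax* starting 11055 bases after the end of *Itgam*. *Itgad*, which encodes the further alpha chain CD11D and is not one of the 4 genes, follows at chr7:128154376-128223816, only 3718 bases after *Itgax*, whereas *Itgal* ends 727501 bases before *Itgam*. *Itgb2* is on the forward strand of another chromosome, at chr10:77530252-77565708. The annotation also holds a gene model on the strand of *Itgam*, *Gm49368*, that shares 3450 of the 5024 exon bases of *Itgam*. If both were counted, reads there could not be assigned to one of them by position. *Gm49368* has no line among the deposited counts, which do keep genes at 0 in every sample, such as *Cox6a2*. Transcripts of *Itgax* and *Itgad* share an identical run of 188 bases, and their few counts are therefore uncertain between each other. *Itgam* shared at most 16 bases in a row with either.

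The upstream sequences of *Itgam* and *Itgax* are shown because *Spi1*, the gene for the myeloid factor PU.1, was among the associated genes that differed between populations (below), and these 2 of the 4 genes matched the RefSeq promoter sequences (GRCm38.p6, forward strand, 250 bases ending at the base before the RefSeq start). Capitals mark the letters GAGGAA or, for the opposite strand, TTCCTC, the core of a PU.1 site.
*Itgam*, chr7:128062390-128062639: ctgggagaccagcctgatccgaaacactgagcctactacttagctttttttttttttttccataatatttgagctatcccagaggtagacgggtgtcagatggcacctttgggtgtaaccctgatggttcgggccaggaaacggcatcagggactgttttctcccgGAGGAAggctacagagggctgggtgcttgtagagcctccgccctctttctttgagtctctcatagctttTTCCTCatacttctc
*Itgax*, chr7:128129300-128129549: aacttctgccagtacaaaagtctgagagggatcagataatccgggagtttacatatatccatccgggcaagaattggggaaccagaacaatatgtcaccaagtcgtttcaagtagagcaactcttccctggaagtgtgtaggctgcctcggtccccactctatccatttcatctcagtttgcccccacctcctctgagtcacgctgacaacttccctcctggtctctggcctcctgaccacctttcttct
The *Itgam* sequence held 2 such matches, at positions -84 to -79 and -15 to -10 counted back from the start, and the *Itgax* sequence held 0. The same 6 letters, on either strand, occur in 23.3% of the 32851 mouse promoter windows of this length, and a match is a description of the letters and not a measured binding site.

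*Itgam* transcript was scarce in every population except 4 week MAC-1+. It had 175, 478 and 96 counts in replicates 1 to 3 of 4 week MAC-1+ HSCs, 6, 95, 21 and 3 counts in replicates 1 to 4 of 4 week MAC-1low HSCs, and 0, 47 and 0 counts in 4 week MAC-1- HSCs. At steady state it had 30, 16 and 15 counts in MAC-1low HSCs and 0, 5 and 2 counts in MAC-1- HSCs. The 4 week MAC-1+ samples lay above all samples of the other populations with 1 exception, in that the second 4 week MAC-1low replicate, at 4.36 CPM, exceeded replicate 3 of MAC-1+, at 3.80 CPM. By mean level the order was 4 week MAC-1+ at 14.04 ± 14.02 CPM (SD, n = 3), 4 week MAC-1low at 1.48 ± 1.96 (SD, n = 4), SS MAC-1low at 1.08 ± 0.427 (SD, n = 3), 4 week MAC-1- at 0.594 ± 1.03 (SD, n = 3) and SS MAC-1- at 0.122 ± 0.132 (SD, n = 3). Neighbours in this order differed by less than the larger of their SDs, also for the step from MAC-1low to MAC-1+ at 4 weeks (log2 fold change 3.24 ± 1.88 SE, edgeR adjusted p = 0.799).

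**Figure D1:**
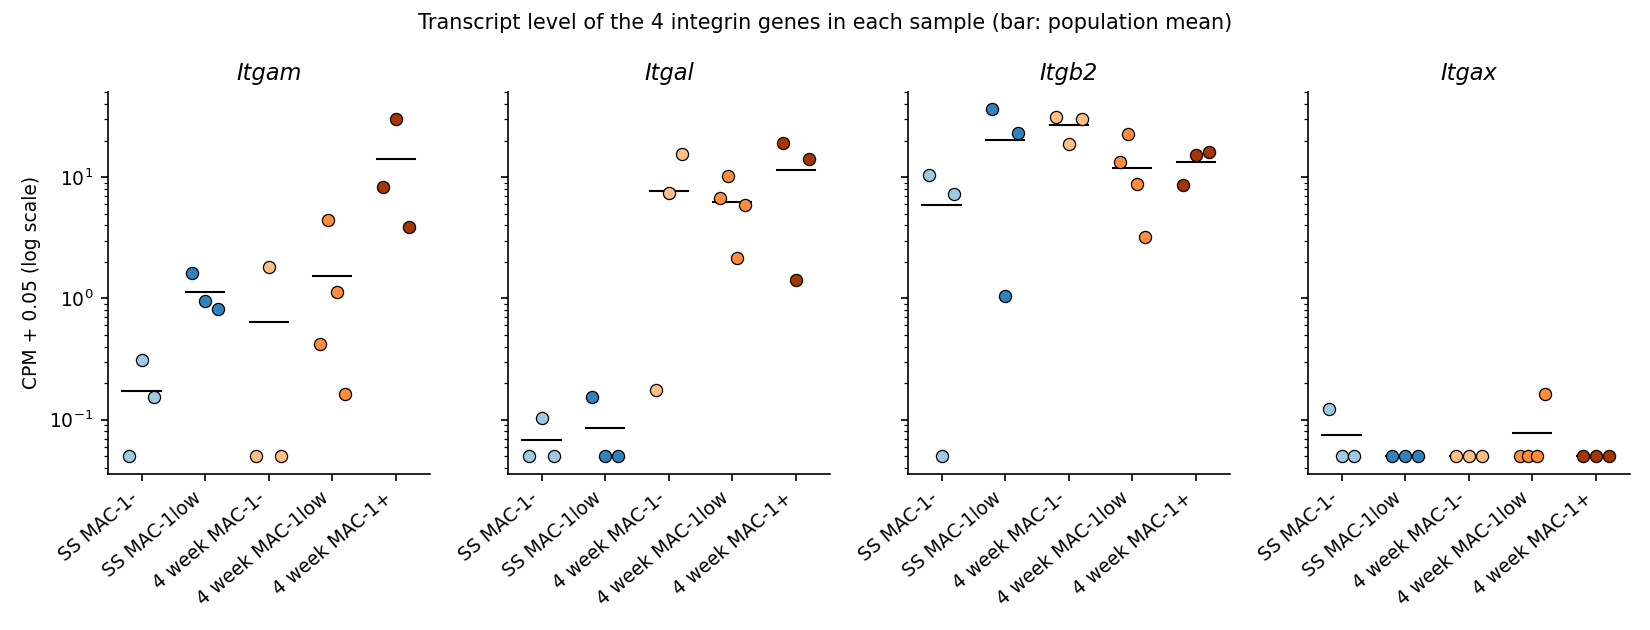
Level of *Itgam*, *Itgal*, *Itgb2* and *Itgax* in each of the 16 samples, in CPM plus 0.05 on a log axis, with points for samples and bars for population means. *Itgal* is at 0 to 2 counts in all 6 SS samples, *Itgam* is highest in 4 week MAC-1+, *Itgb2* is spread over every population and *Itgax* has at most 3 counts in any sample.

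*Itgal* was at the floor in SS HSCs and above it in nearly all 4 week samples, whatever the gate. It was at or below 2 counts in all 6 SS samples, with 0, 1 and 0 counts in SS MAC-1- and 2, 0 and 0 counts in SS MAC-1low HSCs. In 4 week HSCs it had 2, 193 and 256 counts in MAC-1-, 110, 223, 41 and 155 counts in MAC-1low, and 402, 22 and 353 counts in MAC-1+ HSCs. Thus 9 of the 10 samples taken 4 weeks after transplantation exceeded 3 counts and 0 of the 6 SS samples did, the exception being the first 4 week MAC-1- replicate with 2 counts. The 4 week populations had similar means with wide spread, MAC-1- at 7.63 ± 7.67 CPM (SD, n = 3), MAC-1low at 6.23 ± 3.34 (SD, n = 4) and MAC-1+ at 11.5 ± 9.11 (SD, n = 3), and their ranges overlapped. The SS means were 0.0175 ± 0.0303 CPM in MAC-1- and 0.0348 ± 0.0603 CPM in MAC-1low HSCs (SD, n = 3 each), under the floor of 3 counts.

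*Itgb2* was the most widely detected of the 4 genes, exceeding 3 counts in 15 of the 16 samples. It had 142, 0 and 142 counts in SS MAC-1-, 694, 18 and 445 counts in SS MAC-1low, 501, 496 and 501 counts in 4 week MAC-1-, 215, 492, 170 and 84 counts in 4 week MAC-1low and 180, 242 and 403 counts in 4 week MAC-1+ HSCs. The second replicate of each SS population was far below the other two. The highest mean was that of 4 week MAC-1-, at 26.8 ± 6.98 CPM (SD, n = 3), followed by SS MAC-1low at 20.1 ± 17.8 (SD, n = 3), 4 week MAC-1+ at 13.2 ± 4.07 (SD, n = 3), 4 week MAC-1low at 11.9 ± 8.22 (SD, n = 4) and SS MAC-1- at 5.90 ± 5.34 (SD, n = 3). Each neighbouring pair in this order differed by less than the larger of their SDs. Transcript for the shared chain was thus not scarce in the HSCs sorted as lacking MAC-1 after transplantation, at 31.4, 18.8 and 30.3 CPM.

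*Itgax* was at 0 counts in 14 of the 16 samples. It had 3 counts in the fourth 4 week MAC-1low replicate and 1 count in the first SS MAC-1- replicate, at or below the floor, and no difference could be tested. *Itgad* was similar, with 0 to 4 counts and 0 in 9 of the 16 samples.

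Populations were compared with edgeR's quasi-likelihood test over 13661 genes, and a gene was called at a Benjamini-Hochberg adjusted p below 0.1. The first question was whether transcripts of the family followed the MAC-1 gate 4 weeks after transplantation. In the MAC-1+ against the MAC-1- gate at 4 weeks, 0 of the 3 tested members were called, where 3.25% of all genes were (DESeq2 called 11.6% and limma-voom 6.52%, *Itgam* among both). *Itgam* was higher in MAC-1+ by 4.54 on the log2 scale (± 2.23 SE, edgeR unadjusted p = 0.0602, adjusted p = 0.400), and its samples did not overlap, as was true in this direction of 10.2% of all genes. DESeq2 gave an adjusted p of 0.0469 and limma-voom with sample weights 0.0220 for the same difference, and the range over all alternatives was 0.0220 to 0.784. All 47 *Itgam* counts of the MAC-1- samples were in replicate 2, and without it 749 counts stood against 0 (edgeR adjusted p = 0.154). *Itgb2* pointed the other way (log2 fold change -1.02 ± 1.39 SE, edgeR adjusted p = 0.864), with all 3 MAC-1+ samples below all 3 MAC-1- samples, as were 11.5% of all genes. *Itgal* had a log2 fold change of 0.59 (± 1.62 SE, edgeR adjusted p = 0.952) and its samples overlapped.

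For the MAC-1low against the MAC-1- gate at 4 weeks, 0 of 3 members were called against 0.278% of all genes (DESeq2 4.03%, limma-voom 2.34%). The log2 fold changes were 1.30 ± 1.87 (SE) for *Itgam*, -1.17 ± 1.28 for *Itgb2* and -0.29 ± 1.50 for *Itgal*, each with an adjusted p of 1.0 and with overlapping samples. Without the second 4 week MAC-1low replicate the *Itgam* value was -0.18, so that its direction rested on that library. For MAC-1+ against MAC-1low at 4 weeks, 0 of 3 members and 0.0% of all genes were called by edgeR, although 6.85% had an unadjusted p below 0.05 (DESeq2 called 3.17% and limma-voom 0.0366%, with 0 members in either).

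At steady state, SS MAC-1low HSCs had more *Itgam* than SS MAC-1- HSCs in every sample, which 5.95% of all genes also showed in this direction. Pooled over samples the counts were 61 against 7, a ratio of 8.06 after scaling for library size (exact 95% interval 3.69 to 20.9, counting error of reads only). The modelled log2 fold change was 3.06 (± 2.10 SE, edgeR adjusted p = 0.721) and was not called. In this comparison 0 of 3 members were called, against 0.0146% of all genes (DESeq2 6.78%, limma-voom 0.0%). *Itgb2* had a log2 fold change of 1.77 (± 1.42 SE, edgeR adjusted p = 0.790) with overlapping samples. Whether the step from MAC-1- to MAC-1low differed between 4 week and SS HSCs was tested as an interaction, and 0 of 3 members were called against 0.0586% of all genes, with adjusted p-values of 0.961 for *Itgam*, 0.725 for *Itgb2* and 0.995 for *Itgal* (edgeR).

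The remaining comparisons asked how the same gate differed between 4 week and SS HSCs. For *Itgal*, the pooled counts in MAC-1- HSCs were 451 at 4 weeks against 1 at SS, a ratio of 400.0 with an exact 95% counting interval from 71.4 to 15835. In MAC-1low HSCs they were 529 against 2, a ratio of 177 with an interval from 48.8 to 1467. These intervals cover the counting error of reads only, with amplified copies taken as independent. Replicates 2 and 3 of 4 week MAC-1- supplied all but 2 of the 451 counts. In the model the log2 fold changes were 8.27 in MAC-1- (± 2.26 SE, edgeR unadjusted p = 0.00235, adjusted p = 0.219), 7.23 in MAC-1low (± 2.12 SE, edgeR unadjusted p = 0.00393, adjusted p = 0.372) and 8.12 for MAC-1+ at 4 weeks against MAC-1low at SS (± 2.23 SE, edgeR unadjusted p = 0.00241, adjusted p = 0.124). None of these was called by edgeR, where 0.432%, 0.0439% and 1.42% of all genes were, and all of them were called by DESeq2 (adjusted p = 0.000128, 0.00039 and 5.57e-05), which called 7.81%, 4.6% and 9.41% of all genes. Samples did not overlap in any of the 3 comparisons, as for 9.24%, 5.44% and 7.71% of all genes in this direction, but in MAC-1- HSCs the gap was only that between 2 counts and 1 count. The last 2 of these comparisons share the SS MAC-1low samples. *Itgal* passed the filter on low counts through the 4 week samples alone. The p-values of these comparisons, with either tool, are therefore given as a description and not as independent support.

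Because the MAC-1- and MAC-1low comparisons use different samples, both gates were also joined in 1 contrast of 4 week against SS HSCs. This contrast was added after the counts had been seen. It restates counts already seen, and *Itgal* passed the filter on low counts through the 4 week samples alone, so that its value is given as a description and not as independent support. *Itgal* had a log2 fold change of 7.75 (± 1.55 SE, edgeR adjusted p = 0.0401), in a contrast that called 0.864% of all genes (0.476% in the higher direction, DESeq2 9.59% and limma-voom 1.93%). The adjusted p was 1.38e-08 with DESeq2 and 0.0452 with limma-voom with sample weights. The adjusted p rose above 0.1 without the first SS MAC-1- replicate (edgeR adjusted p = 0.106), without replicate 2 of SS MAC-1low (0.129) and without replicate 3 of SS MAC-1low (0.116), each of which had 0 *Itgal* counts, while the log2 fold change stayed between 7.47 and 7.56 in these 3 fits. In the same contrast *Itgam* had a log2 fold change of 1.34 (± 1.36 SE, edgeR adjusted p = 0.787) and *Itgb2* 0.72 (± 0.95 SE, edgeR adjusted p = 0.852), and neither was called.

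**Figure D2:**
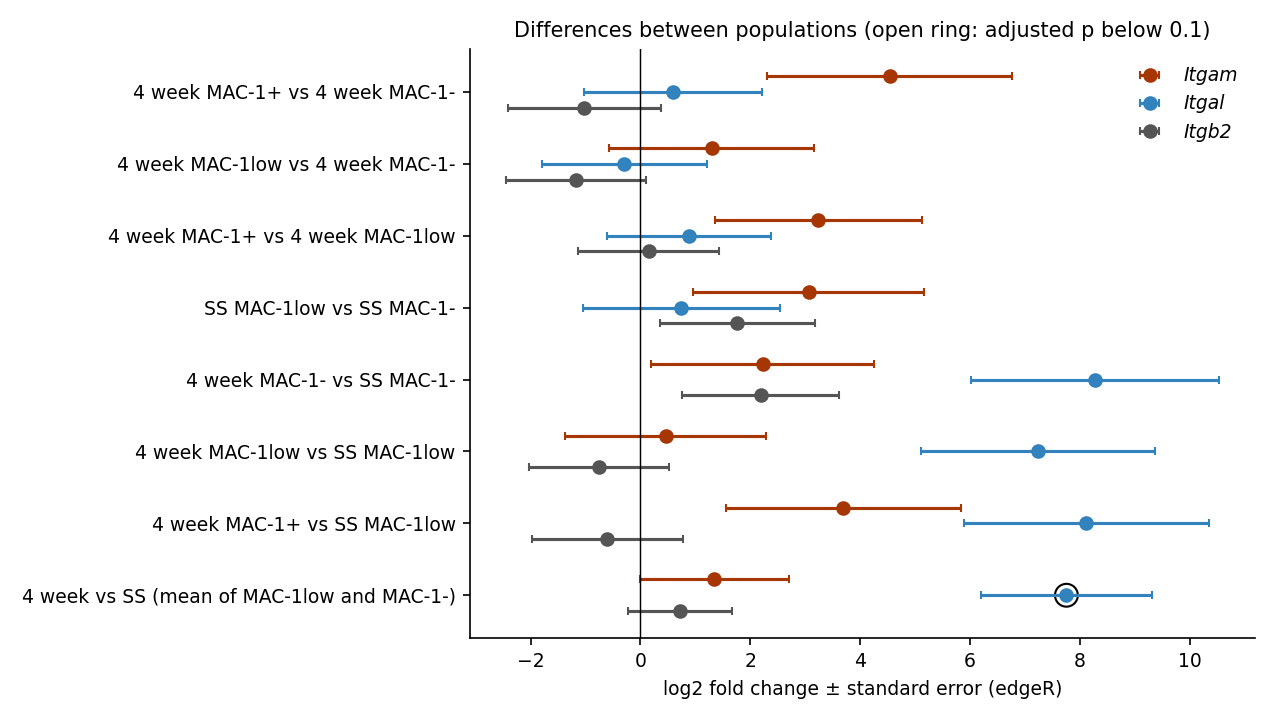
Log2 fold change (horizontal axis) with its edgeR standard error for *Itgam*, *Itgal* and *Itgb2* in 8 comparisons of populations. *Itgal* lies between 7.23 and 8.27 in every comparison of 4 week with SS HSCs and between -0.29 and 0.88 among gates of the same state, and an open ring marks its one called value. The ring is on the joined contrast, which was added after the counts had been seen and is a description. That call was lost in 3 of the 16 fits leaving out 1 sample and with the replicate block.

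*Itgb2* was higher in all 3 4 week MAC-1- samples than in all 3 SS MAC-1- samples, as 9.24% of genes were, but was not called (log2 fold change 2.19 ± 1.44 SE, edgeR adjusted p = 0.629). In a test for any difference among the 5 populations, which called 2.22% of all genes, 0 of 3 members passed, with adjusted p-values of 0.105 for *Itgal*, 0.352 for *Itgam* and 0.933 for *Itgb2* (edgeR). DESeq2 called *Itgal* and *Itgam* in that test (adjusted p = 1.17e-05 and 0.0130), as it called 13.6% of all genes. For *Itgal* these values are likewise a description, since it passed the filter on low counts through the 4 week samples alone.

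The makeup of the CD11 pool was compared per sample as the share of *Itgam*, *Itgal*, *Itgax* and *Itgad* in their summed counts per kilobase of exon. *Itgal* made up 58.6% to 94.2% of this pool in 4 week MAC-1low samples and 75.8% to 100% in 4 week MAC-1- samples, the first MAC-1- replicate having only 2 CD11 counts in all. In 4 week MAC-1+ HSCs it made up 63.7%, 3.40% and 73.8% in replicates 1 to 3. In the 6 SS samples *Itgal* made up 0.0% to 13.3%, on 5 to 34 CD11 counts.

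The share of *Itgam* was 36.3%, 96.6% and 26.2% in 4 week MAC-1+ HSCs, against 0.0%, 24.2% and 0.0% in 4 week MAC-1- HSCs. On this scale *Itgal* was the larger part in 2 of the 3 MAC-1+ samples and *Itgam* was nearly all in the second replicate. *Gm49368* has no line among the deposited counts, so that it may not have been counted at all, but the annotation used is not known. The shares would differ only if reads in the exon bases shared with it had been lost. With *Itgam* taken per kilobase of its 1574 unshared exon bases, as if such reads had been dropped, its share was 64.5%, 98.9% and 53.2% in the 3 MAC-1+ samples, and *Itgal* exceeded 50% in 4 rather than 9 of the 10 samples taken at 4 weeks. In the SS samples *Itgal* was then at most 4.57%. This setting was added after seeing the data. Exact (Clopper-Pearson) 95% intervals for the share of *Itgam* among raw CD11 counts were 26.6% to 34.3%, 93.4% to 97.2% and 17.7% to 25.5% in the 3 MAC-1+ samples. The replicates thus differed by more than the counting error of reads. Without molecular identifiers these intervals take amplified copies as independent, and the spread from amplification was not measured. The mean difference from MAC-1- was 45.0 percentage points (exact two-sided permutation test, p = 0.1, the smallest that 3 against 3 samples allow), and 23.2 points without the second MAC-1+ replicate. In SS HSCs the share of *Itgam* was 88.9%, 87.8% and 100% in MAC-1low and 0.0%, 86.7% and 37.4% in MAC-1- samples, a mean difference of 50.8 percentage points (exact two-sided permutation test, p = 0.1, again the smallest possible). The SS MAC-1- shares rested on 5 or 6 counts each, and without *Itgad* in the sum the difference was 36.1 percentage points (exact permutation test, p = 0.4). Without the first SS MAC-1- replicate it was 30.1 percentage points.

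**Figure D3:**
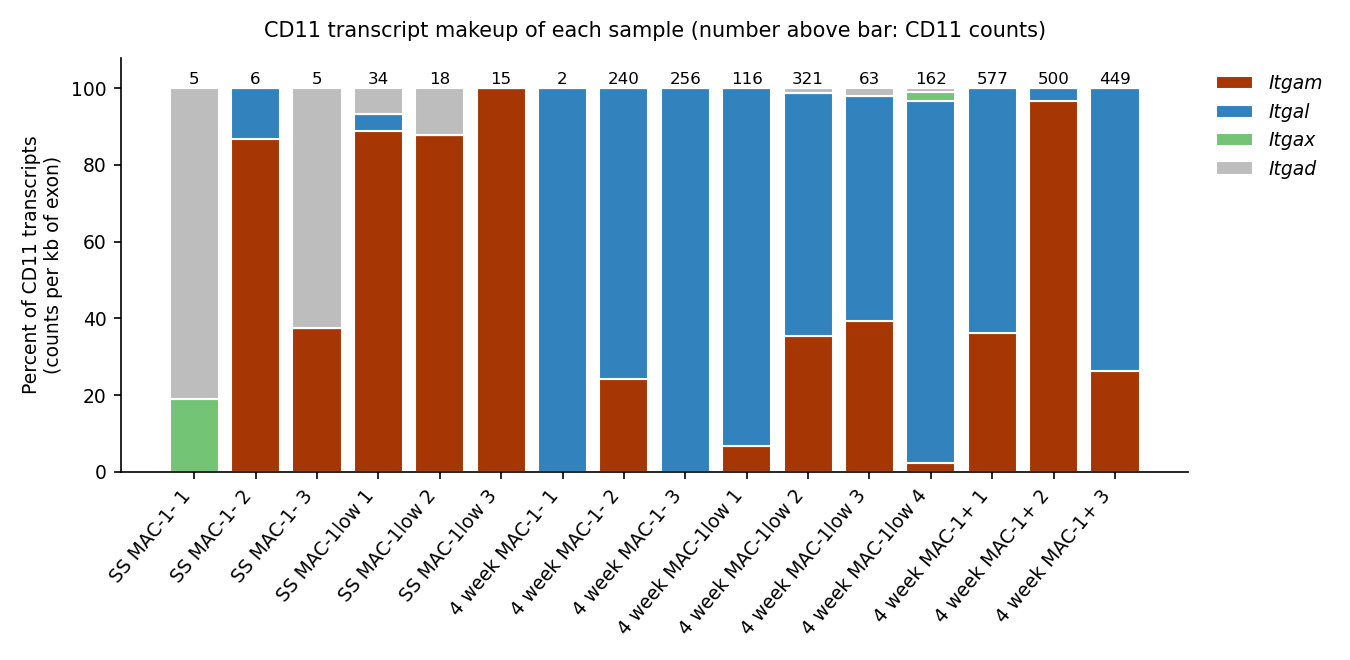
Percent of CD11 transcripts (counts per kilobase of exon) contributed by *Itgam*, *Itgal*, *Itgax* and *Itgad* in each of the 16 samples, with the number of CD11 counts above each bar. *Itgal* makes up at least 58.6% in 9 of the 10 samples taken at 4 weeks and at most 13.3% in the SS samples when all exon bases of *Itgam* are used. It exceeds 50% in 4 of the 10 when bases shared with *Gm49368*, which has no line among the deposited counts, are left out.

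Per kilobase of exon, CD18 transcript exceeded all CD11 transcripts together in most samples. The ratio of summed CD11 to CD18 level per kilobase was 1.63, 1.24 and 0.552 in 4 week MAC-1+ HSCs, 0.191 to 0.910 in 4 week MAC-1low, 0.00185 to 0.238 in 4 week MAC-1- and 0.0205 to 0.615 in SS MAC-1low HSCs. In SS MAC-1- HSCs it was 0.0235 and 0.0229 in the samples with CD18 counts, and the second replicate, with 6 CD11 and 0 CD18 counts, gave no ratio. Among the 15 samples with CD18 counts, the first and second 4 week MAC-1+ samples had more CD11 than CD18 transcript on this scale. Over the 16 samples *Itgb2* had a Spearman's rho of 0.07 with *Itgam* and 0.19 with *Itgal* (log2 CPM, given as a description of samples that share depth and library preparation).

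Genes whose pattern over the 16 samples was most like that of each member were ranked by Spearman's rho of log2 CPM among 11070 genes with a mean of at least 50 counts, again as a description. For *Itgam* they included *Abhd6* (rho 0.88), *Fbxo25* (0.84), *Rdh12* (0.83) and *Nelfb* (0.83). *Rdh12* had 0 counts in all SS MAC-1- samples, 89 to 184 in SS MAC-1low, 0 to 95 in 4 week MAC-1-, 10 to 353 in 4 week MAC-1low and 194 to 465 in 4 week MAC-1+ samples. For *Itgal* they were *Nufip1* (rho 0.86), *Hspa2* (0.85), *H2-Eb1* (0.84), *Dand5* (0.83) and *Hnrnpa1* (0.80). *H2-Eb1*, which encodes an MHC class II chain, had 0 to 23 counts in SS MAC-1-, 2 to 156 in SS MAC-1low, 62 to 512 in 4 week MAC-1-, 179 to 1254 in 4 week MAC-1low and 344 to 723 in 4 week MAC-1+ samples. For *Itgb2* they were *Pigw* (rho 0.81), *Rab27a* (0.81), *Ccdc25* (0.77), *Csrp2* (0.76) and *Galk1* (0.74).

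Genes within 100 kb of the members were read in the same fits. Around *Itgal*, 14 such genes were tested, and 0 were called in the joined contrast of 4 week with SS HSCs, in which their log2 fold changes ran from -1.43 to 1.31 against 7.75 for *Itgal*. *Dctpp1*, which encodes a dCTP pyrophosphatase, was the only neighbour of any member called in another comparison, being lower in MAC-1+ than MAC-1- HSCs at 4 weeks (log2 fold change -1.58, edgeR adjusted p = 0.00519) and than in SS MAC-1low HSCs (log2 fold change -1.27, edgeR adjusted p = 0.0485). Around *Itgam* and *Itgax* 5 neighbours were tested and around *Itgb2* 4, and 0 of them were called in any of the pairwise comparisons or the joined contrast. With 0.0% to 3.25% of all genes called in the pairwise comparisons and 0.864% in the joined contrast, these counts are near the background.

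A list of 53 genes that switch on, restrain, transmit from, bind or transcribe these integrins was examined next, of which 43 were tested. Among 12 genes for activation from inside the cell 11 were tested, and *Rap1b*, 1 of the genes for the RAP1 GTPases that switch on LFA-1 and MAC-1, was the only one called. Of all genes, 3.25% were called for MAC-1+ against MAC-1- at 4 weeks and 0.278% for MAC-1low against MAC-1-. For MAC-1- at 4 weeks against SS the share was 0.432%. *Rap1b* had 4091, 2546 and 2758 CPM in 4 week MAC-1- HSCs, 1192, 917, 772 and 1322 CPM in 4 week MAC-1low, 817, 558 and 585 CPM in 4 week MAC-1+, 1131, 849 and 1231 CPM in SS MAC-1- and 607, 619 and 618 CPM in SS MAC-1low HSCs. The lowest 4 week MAC-1- sample had 2546 CPM, and no sample of another population exceeded 1322 CPM. Between MAC-1+ and MAC-1- at 4 weeks, 11.5% of all genes were lower in MAC-1+ without overlap. *Rap1b* fell by 2.26 on the log2 scale from MAC-1- to MAC-1+ at 4 weeks (± 0.24 SE, edgeR adjusted p = 2.0e-04) and by 1.58 from MAC-1- to MAC-1low (± 0.21 SE, edgeR adjusted p = 0.00848). Against SS MAC-1- HSCs it was higher by 1.55 in 4 week MAC-1- HSCs (± 0.23 SE, edgeR adjusted p = 0.0107). This last call was lost in a fit of only the groups compared (edgeR adjusted p = 0.159).

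By population means, the order of *Rap1b* over the gates was the reverse of that of *Itgam* within 4 week and within SS HSCs taken separately, but not over the 5 populations together. In the SS comparison its log2 fold change of -0.80 for MAC-1low against MAC-1- (± 0.23 SE, edgeR adjusted p = 0.409) was not called, although all 3 MAC-1low samples lay below all 3 MAC-1- samples, as 5.38% of genes did. The paralogue *Rap1a* had means of 136 to 206 CPM over the 5 populations and was not called. *Tln1* (talin-1) and *Fermt3* (kindlin-3) were not called either, with log2 fold changes of 0.03 ± 0.41 and -0.78 ± 0.80 (SE) for MAC-1+ against MAC-1- at 4 weeks. Over the 11 genes the median log2 fold change in that comparison was 0.03, beside 0.07 over all genes.

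Of 6 transcription factors linked to these genes 5 were tested. *Spi1* had 1.51, 2.16 and 7.61 CPM in 4 week MAC-1- HSCs, 27.5, 52.6, 33.6 and 34.9 CPM in 4 week MAC-1low and 56.2, 54.7 and 46.5 CPM in 4 week MAC-1+ HSCs, and 25.8 to 45.1 CPM in the 6 SS samples. The 4 week MAC-1- population was the low one and did not overlap any other. Between MAC-1+ and MAC-1- at 4 weeks, 10.2% of all genes had no overlap in this direction. The share of genes separated from every other population is not given here. *Spi1* was higher in the MAC-1+ than the MAC-1- gate by 3.80 on the log2 scale (± 0.65 SE, edgeR adjusted p = 0.00676), a call that held in all 16 fits leaving out 1 sample and was lost with only the groups compared (0.105). At 4 weeks *Spi1* was also higher in MAC-1low than MAC-1- HSCs by 3.31 on the log2 scale (± 0.62 SE, edgeR adjusted p = 0.0529), and MAC-1- HSCs had less of it at 4 weeks than at SS, at -3.12 (± 0.63 SE, edgeR adjusted p = 0.0672). The MAC-1low call was lost without replicate 1 or 2 of 4 week MAC-1- or replicate 2, 3 or 4 of 4 week MAC-1low (edgeR adjusted p = 0.104 to 0.312), in a fit of only the groups compared (0.176) and without replicates 2 and 3 of 4 week MAC-1+ together (0.118). The call between 4 week and SS was lost without replicate 1 or 2 of 4 week MAC-1-, replicate 3 or 4 of 4 week MAC-1low, replicate 3 of 4 week MAC-1+, replicate 2 of SS MAC-1- or replicate 3 of SS MAC-1low (0.101 to 0.273), with only the groups compared (0.365), with no filter (0.133) and without replicates 2 and 3 of 4 week MAC-1+ together (0.134). SS MAC-1- HSCs, which had 0 to 5 *Itgam* counts, had 32.6 ± 10.8 CPM of *Spi1* (SD, n = 3), within the range of SS MAC-1low, but the difference between 4 week and SS HSCs in the step from MAC-1- to MAC-1low was not called (log2 3.09 ± 0.82 SE, edgeR adjusted p = 0.345, DESeq2 0.000756). *Myb*, a factor of immature blood cells, was called lower in MAC-1- HSCs at 4 weeks than at SS (log2 fold change -1.10, edgeR adjusted p = 0.0939), and higher in the MAC-1+ than the MAC-1- gate at 4 weeks (log2 fold change 0.89, edgeR adjusted p = 0.0816). These calls were lost in 13 and 10 of the 16 fits that left out 1 sample and with only the groups compared (edgeR adjusted p = 0.251 and 0.223), and without replicates 2 and 3 of 4 week MAC-1+ together the latter was 0.24 (edgeR adjusted p = 0.856). *Cebpa*, a myeloid factor, had at most 2 counts in any sample.

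**Figure D4:**
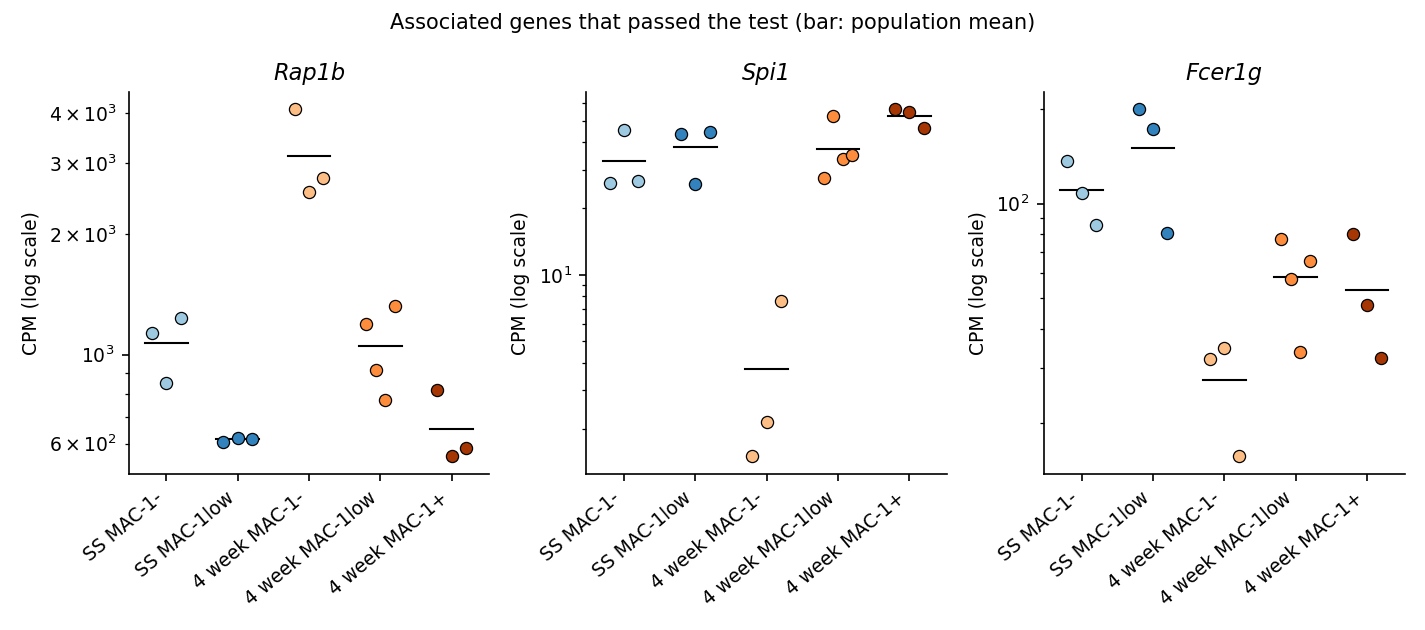
CPM on log axes of *Rap1b*, *Spi1* and *Fcer1g* in each of the 16 samples, with bars for population means. The 3 samples of 4 week MAC-1- stand apart as high for *Rap1b* (2546 to 4091 CPM) and low for *Spi1* (1.51 to 7.61 CPM), and *Fcer1g* is lower at 4 weeks than at SS in both gates that can be compared. Between MAC-1+ and MAC-1- at 4 weeks, 10.2% of all genes are higher and 11.5% lower in MAC-1+ without overlap.

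Among 12 genes for signalling downstream of the engaged integrin 11 were tested. *Fcer1g*, an adaptor chain with an activation motif, was called lower in 4 week than SS HSCs in the joined contrast (log2 fold change -1.68 ± 0.32 SE, edgeR adjusted p = 0.0316). That contrast called 0.864% of all genes. It had 85.7 to 137 CPM in SS MAC-1- and 80.4 to 199 CPM in SS MAC-1low, against 15.7 to 34.7 CPM in 4 week MAC-1- and 33.6 to 76.9 CPM in 4 week MAC-1low HSCs. Its direction was opposite to that of *Itgal* in the same samples. *Tyrobp*, the gene for the related adaptor DAP12, had a log2 fold change of 0.03 (± 0.81 SE, edgeR adjusted p = 1.0) in that contrast.

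Of 6 negative regulators 5 were tested and 0 were called between any pair of populations, where 0.0% to 3.25% of all genes were called. *Cytip*, which encodes a partner of cytohesin-1 that weakens LFA-1 adhesion, passed only the test for any difference among the populations (edgeR adjusted p = 0.0918, lost in 13 of the 16 fits that left out 1 sample, and 0.180 without replicates 2 and 3 of 4 week MAC-1+ together). It had 109.8 to 209 CPM in 4 week MAC-1low and 111 to 248 CPM in 4 week MAC-1+, against 60.8 to 77.8 CPM in 4 week MAC-1- and 13.5 to 78.9 CPM in the SS samples. None of the 8 tested ligands and counter-receptors out of 12, and none of the 3 tested partners on the same membrane out of 5, was called in any comparison, which at 0.0% to 3.25% of all genes called says nothing particular to them. *Icam2*, a ligand of LFA-1, had means of 47.8 to 66.1 CPM over the populations. *Icam1* ranged from 0 to 925 counts, with 4 to 50 in 4 week MAC-1+ and 62 to 925 in SS MAC-1low (log2 fold change -4.98 ± 2.00 SE, edgeR adjusted p = 0.345). Low counts of it were not particular to MAC-1+, with 3 to 26 in 4 week MAC-1-. It had 3 to 462 counts in 4 week MAC-1low and 0 to 387 in SS MAC-1-. The fibrinogen chain genes *Fga*, *Fgb* and *Fgg* had at most 6 counts. Over the 43 genes 2 were called higher and 1 lower for MAC-1+ against MAC-1- at 4 weeks, where 3.25% of all genes were called. The list had 0 calls for MAC-1+ against MAC-1low at 4 weeks, for MAC-1low against MAC-1- at SS, and for either 4 week MAC-1low or 4 week MAC-1+ against SS MAC-1low, where 0.0%, 0.0146%, 0.0439% and 1.42% of all genes were called, so that these counts say nothing particular to the list.

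Because these integrins mark mature leukocytes, transcripts of other cell types were read in the same samples. The summed level of 8 neutrophil markers (*S100a8*, *S100a9*, *Ltf*, *Camp*, *Ngp*, *Lcn2*, *Retnlg* and *Mmp8*) was 164, 958 and 6974 CPM in replicates 1 to 3 of 4 week MAC-1+ HSCs. It was 23.1 to 69.3 CPM in 4 week MAC-1-, 31.5 to 156 CPM in 4 week MAC-1low, 79.4 to 110.8 CPM in SS MAC-1- and 131 to 168 CPM in SS MAC-1low HSCs, so that both *Itgam* and these markers were highest in 4 week MAC-1+. Within the 4 week MAC-1+ population the order differed, since *Itgam* was 8.31, 30.0 and 3.80 CPM and the replicate with the most neutrophil transcripts had the least *Itgam*. Up to 7 of the 8 markers exceeded 3 counts in 4 week MAC-1+, and *Mmp8* was at or below 3 counts everywhere. Without replicates 2 and 3 of 4 week MAC-1+ together, *Itgam* in the remaining one was above MAC-1- by 3.78 on the log2 scale (edgeR adjusted p = 0.784, the lone sample being assumed to vary like the other groups) and *Itgal* above SS MAC-1low by 8.84 (edgeR adjusted p = 0.230). The part of these transcripts in the *Itgam* level was not tested.

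**Figure D5:**
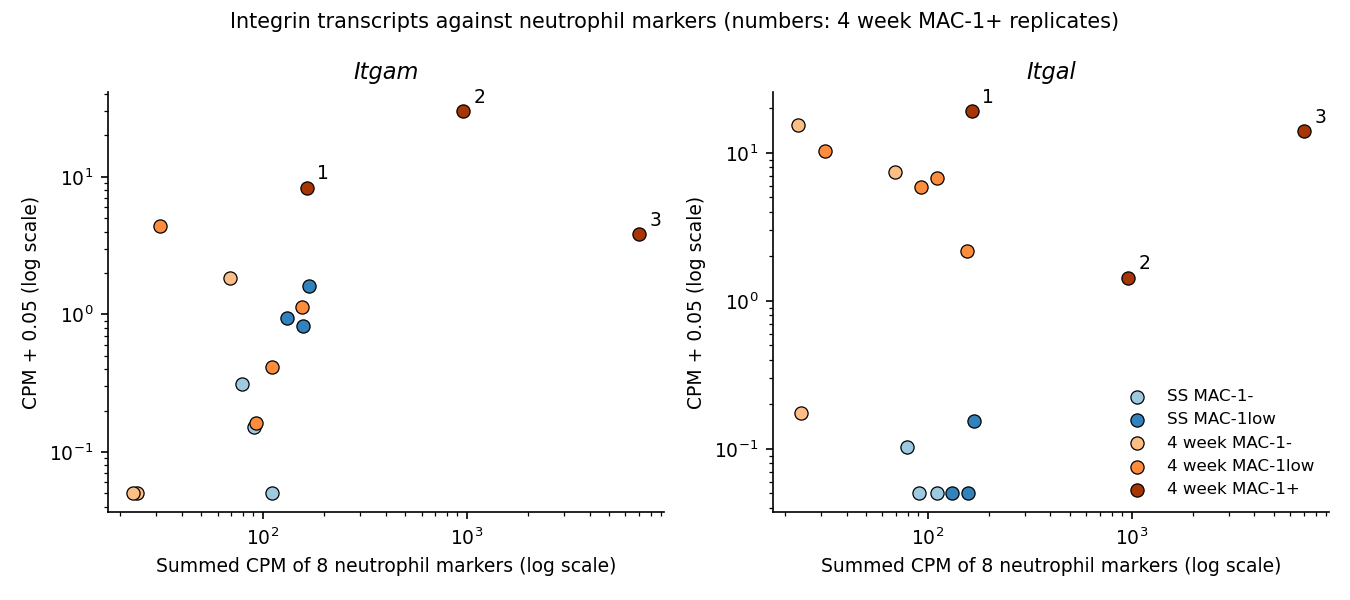
Level of *Itgam* and *Itgal* (CPM plus 0.05, log axis) against the summed CPM of 8 neutrophil markers (log axis) in each of the 16 samples, with the 4 week MAC-1+ replicates numbered. The second MAC-1+ replicate, at 958 CPM of neutrophil markers, has the highest *Itgam*, and replicate 3, at 6974 CPM, has the lowest *Itgam* of the 3.

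The lists for other cell types were read in the same way, and their part in the *Itgal* level was not tested. Of 7 T cell markers, *Cd3e*, *Cd3g* and *Cd8a* were at or below 3 counts in every sample, whereas *Lck* exceeded 3 counts in 11 samples (up to 863) and *Cd4* (134 counts) and *Trbc2* (103 counts) each did so in 1 sample, of SS MAC-1low. Their summed level was 6.94 to 37.8 CPM in SS and 0.0 to 52.9 CPM in 4 week samples. Of 8 B cell markers, *Ms4a1*, *Pax5*, *Ebf1* and *Igll1* were at or below 3 counts everywhere and *Cd79b* had 106 to 2983 counts, with a summed level of 7.27 to 170 CPM in SS and 10.2 to 119 CPM in 4 week samples. Of 8 NK markers, *Ncr1*, *Klrk1* and *Prf1* were at or below 3 counts everywhere, and the summed level, 216 to 379 CPM in SS and 16.2 to 642 CPM in 4 week samples, came mostly from *Nkg7*, which had at least 337 counts in every sample. Of 9 monocyte and macrophage markers, *Csf1r*, *Adgre1* and *Fcgr1* were at or below 3 counts everywhere (summed level 656 to 831 CPM in SS and 410.3 to 863 CPM in 4 week samples). *Ms4a6c* exceeded 3 counts in all 16 samples, with 3617 to 5945 counts in 4 week MAC-1+, 2111 to 4196 in 4 week MAC-1low, 767 to 1028 in 4 week MAC-1- and 343 to 2079 in SS samples, and its part in the *Itgam* level was not tested. *Lyz2* had 5506 to 15896 counts and *Cd68* 0 to 981 counts, and *Ly6c2* exceeded 3 counts in 2 samples, both 4 week MAC-1+, reaching 2736 counts in replicate 3. Of 6 dendritic cell markers, *Siglech*, *Cd209a* and *Ccr9* were at or below 3 counts everywhere, and the summed level was at most 38.5 CPM. Of 6 erythroblast markers *Alas2* was at 0 throughout, and the summed level was 77.3 to 178 CPM in 4 week MAC-1+ against 12.0 to 55.4 CPM elsewhere.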

How the data were processed

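RNA from pools of sorted HSCs was amplified with SMART-Seq v4 and made into Nextera XT libraries, which do not mark strand and hold no molecular identifiers. Per the methods of the study, reads were processed with the nf-core RNA-seq pipeline (version 1.4.2) and STAR. The authors deposited 1 merged table of counts per gene, not normalized. The counting tool, annotation and genome build were not given in the sources used here. Positions and exon lengths came from GENCODE M21 (GRCm38), matched by gene identifier (98.0% of 46078 genes).

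CPM were computed with edgeR 4.0.16 (R 4.3.3), TMM scaling and default filterByExpr (13661 genes kept). A robust quasi-likelihood model with 1 mean per population was fitted to all 16 samples, checked on simulated counts, and p-values were adjusted over all genes by Benjamini-Hochberg (call below 0.1). The standard error is the size of the log2 fold change over the square root of F. Alternatives were DESeq2 1.42.0, limma-voom with sample weights (limma 3.58.1), other size factors, no or a stricter filter (10 counts in 6 samples), only the groups compared, the replicate number as a block, counts thinned to the smallest total, and each sample left out in turn. The joined contrast of 4 week with SS HSCs, the shares over unshared *Itgam* exon bases and the fits without a pair of 4 week MAC-1+ libraries were added after seeing the data. Genes named were the 4 members and *Itgad*, called genes of the integrin lists (at most 5 per list), the 5 genes most like each member, neighbours within 100 kb and cell markers. Further genes given by value for their role or count (*Tln1*, *Fermt3*, *Rap1a*, *Tyrobp*, *Icam1*, *Icam2*, *Cebpa* and the fibrinogen genes) were chosen from the lists after their values were seen. Some items that these rules name are not reported here. Members and lists were chosen with earlier results of these data known. Intervals and floors cover the counting error of reads only and take amplified copies as independent.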

Additional observations from a re-analysis of the deposited data

How the results depend on the processing

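The number of members called was 0 in the 7 pairwise comparisons, the interaction and the test for any difference with edgeR. DESeq2 gave 1 in MAC-1+ against MAC-1- at 4 weeks (*Itgam*) and 1 in each of the 3 comparisons of 4 week with SS HSCs (*Itgal*), and 2 in the test for any difference. Limma-voom gave 1 in MAC-1+ against MAC-1- at 4 weeks and 1 in the test for any difference, as did no filter (1) and the stricter filter (1) in the latter. The cause was not tested. In the joined contrast of 4 week with SS the number was 1, 0 with the replicate block, and 0 to 1 with each sample left out. Directions that turned belonged to differences that were not called. For *Itgam* they were 4 week against SS MAC-1low (-0.57 with limma-voom, -0.35 with the replicate block) and the joined contrast (-0.22 with limma-voom). For *Itgb2* they were MAC-1+ against MAC-1low at 4 weeks (-0.27 with the block, -0.49 without replicates 2 and 3 of MAC-1+), 4 week against SS MAC-1low (0.18 with the block) and 4 week MAC-1+ against SS MAC-1low (0.25 with limma-voom). For *Itgal* they were 4 week MAC-1low against MAC-1- (0.95), SS MAC-1low against MAC-1- (-0.024) and the interaction (0.97), all with limma-voom. With each sample left out in turn, the log2 fold changes that turned spanned the following ranges. For *Itgam* they were -0.18 to 7.83 (4 week MAC-1low against MAC-1-), -4.32 to 3.33 (MAC-1- at 4 weeks against SS), -1.07 to 0.84 (MAC-1low at 4 weeks against SS), -3.23 to 4.77 (interaction) and -1.93 to 1.90 (joined contrast). For *Itgb2* they were -0.17 to 0.68 (4 week MAC-1+ against MAC-1low) and -1.17 to 0.15 (4 week MAC-1+ against SS MAC-1low). For *Itgal* they were -0.87 to 0.74 (4 week MAC-1low against MAC-1-), -1.98 to 2.70 (SS MAC-1low against MAC-1-) and -2.99 to 1.70 (interaction). Deviations of same-numbered samples correlated at -0.02 to 0.04 over 30 pairs, and 6 of 16 samples correlated best with their own number. The title numbers thus showed no pairing. Serial codes in the sample descriptions order some 4 week samples otherwise than the title numbers do. Pairing by these codes was not tested, and the replicate block used the title numbers. With the block the *Spi1* calls of 4 week MAC-1low against MAC-1- and of MAC-1- at 4 weeks against SS were also lost (edgeR adjusted p = 0.195 and 0.149). Depth limits *Itgax*, *Itgad* and SS *Itgal*, which lie at or near the floor.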
